A study of Mus musculus with 18 samples.

Results

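Mouse embryonic fibroblasts that lacked AGO2 and mouse embryonic fibroblasts that lacked Dicer were pooled as one side and set against wild-type fibroblasts. The comparison used the gene-level values of 9 samples of the 18 in the series: 3 AGO2 null (genotype AGO2 -/-), 3 Dicer null (Dicer -/-) and 3 wild-type samples, all chosen by their labels. The cells are fibroblasts, connective tissue cells, grown out of mouse embryos, and all groups were kept for 3 days in DMEM with 7% fetal calf serum. Total RNA was hybridised to Affymetrix mouse exon arrays, whose probe sets each read a single exon, and each array yielded a gene-level and an exon-level sample. The labels give one source for the wild-type and Dicer null cells and a different one for the AGO2 null cells. They name 1 line per genotype and no embryo, litter or clone, so p-values cover only sample-to-sample spread within lines, which could be technical. Since the 3 wild-type samples serve as the control for both null lines, a trait of that wild-type line alone cannot be told apart from a change shared by both null lines.

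Dicer cuts hairpin precursors into mature microRNAs, and Argonaute proteins such as AGO2 hold the microRNA and bring it to messenger RNAs that match its seed. Bound messages are translated less and decay faster, so loss of the pathway is known to relieve targets directly and to shift many other genes indirectly. AGO2 also cuts fully matched targets and acts in Dicer-independent steps, and other Argonautes can carry microRNAs without it.

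A row of the gene-level table is called "similar" here when it was called in each null line against wild type in the same direction, differed at least 2-fold in each, and had a 95% interval of AGO2 null minus Dicer null within 1 log2 unit either way. That last difference uses no wild-type sample. All differences are on the log2 scale, null minus wild type, where the null value is the mean of both lines. A call means that limma gave an adjusted p (Benjamini-Hochberg, all 23332 rows) under 0.05. Of these rows, 5409 (23.2%) were called in the mean of both null lines against wild type, 2572 higher (11%) and 2837 lower (12.2%). Called the same way in each line were 2596 rows (11.1%), 1274 higher (5.46%) and 1322 lower (5.67%), and 475 rows (2.04%) were called in opposite ways. The other rows called in the mean included 2639 called in 1 line only. A further 6140 rows (26.3%) were called between the null lines themselves, so the null lines differed from each other at about as many rows as their mean did from wild type. Against wild type, 4903 rows (21%) were called in the AGO2 null line and 6264 (26.8%) in the Dicer null line.

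At least 2-fold the same way in each line were 488 rows (2.09%). Of these, 315 rows (1.35% of all rows) were similar, 165 higher (0.707%) and 150 lower (0.643%), and they made up 64.5% of the 488. Another 108 (22.1%) were unequal, called between the lines and at least 2-fold apart, and 65 (13.3%) were unresolved. For each of the 315 rows the 6 null samples and 3 wild-type samples did not overlap. This follows largely from the rule that chose the rows in these same samples, and is no further support. It held for 4324 rows (18.5%) of the table. In the similar class the rises had a median difference of 1.61, with a median distance between the lines of 0.24, and the falls had a median of -1.60 with a distance of 0.28. The 67 unequal falls went further down in the Dicer null line without exception, also after quantile normalization (73 of 73) and after median centring (58 of 58). The similar falls went further in the Dicer null line in 121 of 150 rows, whereas for the similar rises this was so in 80 of 165. The 41 unequal rises were larger in the Dicer null line in 19.

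**Figure D1:**
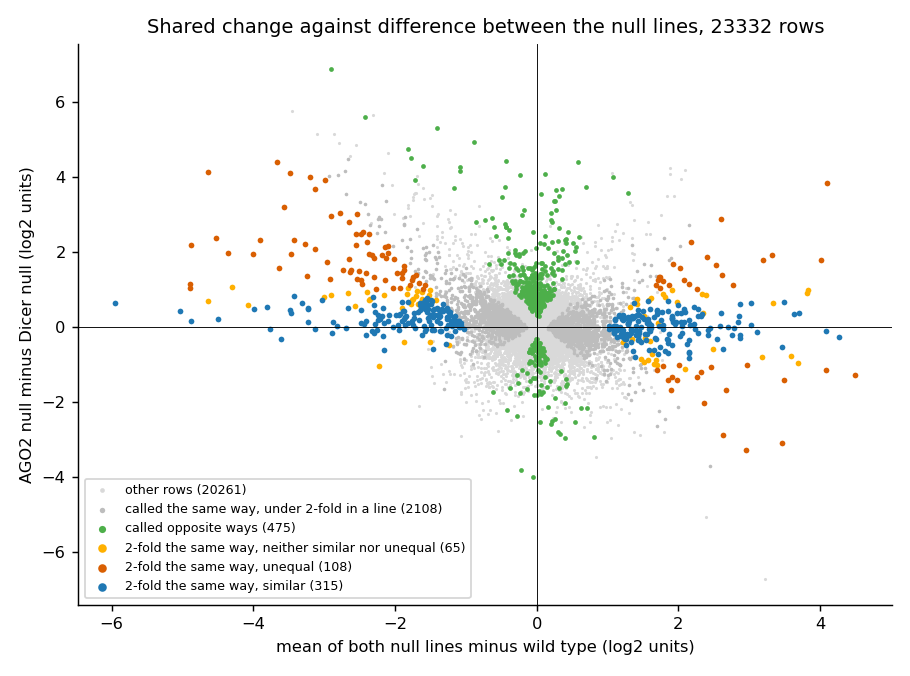
Each dot is 1 of 23332 rows of the gene-level table; the x axis is the mean of both null lines minus wild type and the y axis is AGO2 null minus Dicer null, both in log2 units. The 315 similar rows lie in 2 flat bands close to 0 on the y axis, at least 2-fold from wild type on either side; the 67 unequal falls lie above them, where the Dicer null level is the lower one, and the 475 rows called in opposite ways spread up and down near the middle.

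When the 6 null samples were treated as 1 group of 6, 2479 rows were called against wild type, and with the line entered as a random block, 1045 rows (545 higher, 500 lower) were called. After median centring the higher share of the called rows was 58.0%, against 47.6% as deposited, so the balance between rises and falls depends on how the arrays are scaled. Samples of one group correlated at 0.985 to 0.993, null with wild-type samples at 0.957 to 0.972, and AGO2 null with Dicer null samples at 0.959 to 0.968. No detection measure is given in the files used here. The 25th percentile of the row means, 4.84, serves as a mark of dim rows, and 24 of the 150 similar falls ended below it in both null lines, where the size of the fall and the likeness of the lines are limited by the floor of the array.

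The targeted genes did not belong to the genes moved alike. Ago2 had log2 levels of 6.74, 6.92 and 6.65 in the AGO2 null samples, 9.23, 9.15 and 9.04 in the Dicer null samples and 8.24, 8.20 and 8.24 in the wild-type samples. Dicer1 had 9.40, 9.42 and 9.39 in AGO2 null, 8.42, 8.35 and 8.35 in Dicer null and 9.17, 9.17 and 9.20 in wild type. Each gene was lowest in the line labelled as lacking it and highest in the other null line, with no overlap between any of the groups. The differences were -1.46 and 0.91 for Ago2 and 0.23 and -0.80 for Dicer1, in the AGO2 null and the Dicer null line in that order.

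The largest similar rises of named genes were those of Cadm1, Rtn1 and Krt19. Cadm1, an immunoglobulin-type adhesion molecule, had log2 levels of 10.16, 9.97 and 10.19 in AGO2 null, 10.37, 10.34 and 10.40 in Dicer null and 6.18, 5.82 and 5.93 in wild type. The null samples of both lines thus lay in one narrow band far above wild type. The difference was 4.26 (SE 0.09, adjusted p = 7.66e-08), a 19.2-fold rise, with 4.13 in one line and 4.39 in the other, and 13 of its 15 exon probe sets had all null samples above all wild-type samples. Rtn1, a reticulon of the endoplasmic reticulum known from neurons, stood at 9.66, 9.43 and 9.78 in AGO2 null, 9.76, 9.65 and 9.76 in Dicer null and 5.50, 5.40 and 5.88 in wild type. That is a rise of 4.08 (SE 0.12, adjusted p = 3.12e-07), and the interval between the lines ran from -0.42 to 0.21. Krt19, a keratin of simple epithelia and mesothelium, had 9.29, 9.88 and 9.22 in AGO2 null, 9.12, 9.09 and 9.03 in Dicer null and 5.69, 5.34 and 5.66 in wild type. Its rise of 3.71 (SE 0.15, adjusted p = 1.97e-06) was 13.1-fold, and 8 of 8 exon probe sets showed it.

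Further large and similar rises came from genes of several kinds. Trf, the iron carrier transferrin, rose by 3.48, from wild-type levels of 7.41, 7.49 and 7.35 to 11.17, 11.25 and 11.28 in AGO2 null and 10.55, 10.55 and 10.58 in Dicer null. It is an example of a similar gene whose lines are still told apart, since the interval between them was 0.55 to 0.80 (adjusted p = 7.42e-05). Of the 315 similar rows, 110 were likewise called between the lines. Gsta3, a glutathione transferase that conjugates electrophiles, rose by 3.63, and Sema6d, a transmembrane semaphorin, by 3.47. Pkhd1l1, a large membrane protein related to fibrocystin, rose by 3.11, and 85 of its 86 exon probe sets had all null samples above wild type. Prg4 (lubricin, the lubricant of joint and serosal surfaces) rose by 3.03, Bst1 (an ADP-ribosyl cyclase on the cell surface) by 2.88, Igfbp3 (a carrier of insulin-like growth factors) by 2.87 and Scel (sciellin, of the cornified envelope) by 2.87. For each of these the 6 null samples lay above the 3 wild-type samples.

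Among named genes, the largest similar falls reached further than the rises. Slc14a1, a urea transporter, had log2 levels of 5.51, 6.28 and 6.04 in AGO2 null, 5.56, 5.49 and 5.51 in Dicer null and 10.55, 10.83 and 10.92 in wild type. It fell by 5.03 (SE 0.16, adjusted p = 5.65e-07), which is 32.8-fold. Penk, the precursor of enkephalin peptides, had 5.18, 5.78 and 4.94 in AGO2 null, 4.97, 5.43 and 5.02 in Dicer null and 10.28, 10.01 and 10.03 in wild type. The lines overlapped each other and lay far below wild type, with a difference of -4.88 (SE 0.19, adjusted p = 1.5e-06). H19, an imprinted long noncoding RNA and the host of a microRNA, had 7.19, 7.03 and 7.14 in AGO2 null, 6.69, 7.04 and 6.96 in Dicer null and 11.48, 11.49 and 11.56 in wild type. Its fall of 4.50 (SE 0.08, adjusted p = 4.09e-08) was 22.7-fold, and 6 of 6 exon probe sets showed it.

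The other large falls were those of genes with unlike roles. Hdac9, a class II histone deacetylase, fell by 3.98, Dkk2, a secreted Wnt modulator, by 3.80, and Ebf3, an early B-cell factor of mesenchyme and neurons, by 3.48. Mme, the cell surface peptidase neprilysin, fell by 3.76, with interval bounds between the lines of -0.53 and 0.44. Rgs2, a brake on G-protein signalling that is induced by serum, fell by 3.61, to an AGO2 null level under the mark of dim rows. Adgrl3, an adhesion receptor of the latrophilin family, fell by 3.43 and Lgr5, the R-spondin receptor known as a stem cell marker, by 3.31. Galnt13, which starts O-linked glycans, fell by 3.23, but its null levels of 3.64 to 3.94 in the one line and 3.58 to 3.78 in the other lay under the mark of dim rows, so the likeness of the lines is limited there.

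Below these came similar genes of many kinds, and those given here are a choice, not the next in order of size. Of the falls, Fgl2, a secreted fibrinogen-like regulator of immune cells, differed by -3.16 in AGO2 null and -3.10 in Dicer null. Stc2, the secreted glycoprotein stanniocalcin 2, differed by -2.51 and -2.31, and Hlf, a bZIP transcription factor, by -2.40 and -2.93. Edil3, a matrix protein that binds integrins, differed by -2.07 and -2.48. Both null means of Fgl2 (4.05 and 4.11) and of Edil3 (4.55 and 4.14) lay under the mark of dim rows, so the size of these falls and the likeness of the lines are limited by the floor. Of the rises, Chn2, which switches off the GTPase Rac, differed by 2.91 in AGO2 null and 2.78 in Dicer null, and Stk26, a kinase of the germinal centre family, by 2.65 and 2.86. Slc39a8, an importer of zinc and manganese, differed by 2.79 and 2.41, and Gpr39, a receptor that senses zinc, by 2.31 and 2.53. Gcnt1, which branches O-linked glycans, differed by 2.52 and 2.16, and F11r, the tight junction protein JAM-A, by 2.26 and 2.17. Neither line had the larger difference in all of these genes.

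**Figure D2:**
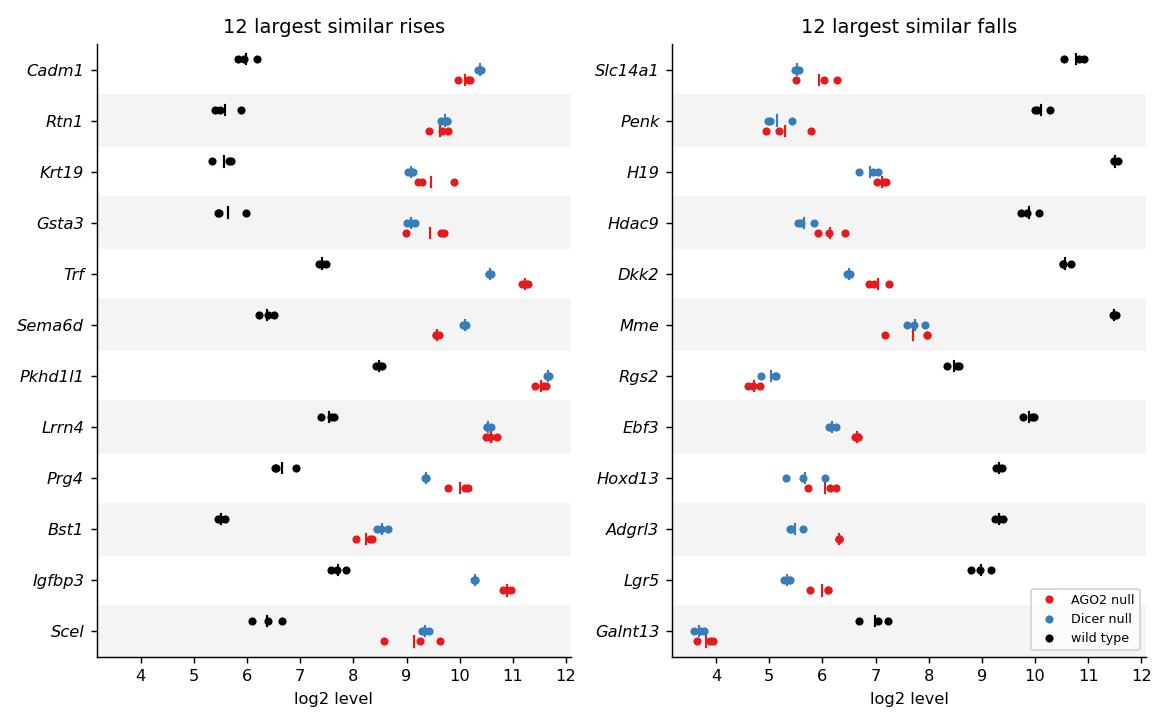
Log2 level (x axis) in each of the 9 samples for the 12 named genes with the largest similar rise and the 12 with the largest similar fall. Dots are samples by genotype and bars are group means. In each gene both null lines lie together on one side of wild type, and Slc14a1, at -5.03, shows the widest gap of the falls and Cadm1, at 4.26, that of the rises.

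The exon-level samples come from the same arrays, so they show only whether the difference ran along the gene. Of 134 named genes with a similar rise and at least 4 exon probe sets, a median of 91.7% of the probe sets had all null samples above all wild-type samples, against 8.22% of all exon probe sets in the table. For 135 genes with a similar fall the median was 81.8%, against 8.34%. Most probe sets showed the gene's direction in 131 of the 134 and 128 of the 135 genes.

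Genes of the mesothelium, the sheet of cells that lines the body cavities and has both epithelial and mesenchymal traits, were higher in both null lines. Of 12 measured mesothelial markers, 11 were called higher in the mean of the null lines and none lower, beside 28.6% of all named genes called (13% higher, 15.7% lower). Called higher in each line were 10 of the 12, beside 6.67% of all named genes, and 7 were similar, beside 1.82%. The list was chosen with earlier results of these data known, so these shares describe it and carry no test. The median difference over the 12 markers was 2.16, with 2.11 in AGO2 null and 2.35 in Dicer null, while the median of all named genes was -0.00. The counts of 11 and 10 were the same after quantile normalization and after median centring, and 8 of the 12 were called with the line as a random block.

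The similar mesothelial markers were surface, cytoskeletal and transcription factor genes. Lrrn4, a leucine-rich membrane protein of mesothelium, had log2 levels of 10.70, 10.50 and 10.56 in AGO2 null, 10.59, 10.51 and 10.51 in Dicer null and 7.38, 7.58 and 7.64 in wild type. Bnc1, the zinc finger protein basonuclin, had 9.31, 9.28 and 9.33 in AGO2 null, 9.37, 9.21 and 9.31 in Dicer null and 6.49, 6.83 and 6.48 in wild type. The null lines overlapped each other in both genes and were 3.03 and 2.71 above wild type. Upk3b, a uroplakin of the mesothelial surface, stood at 11.47, 11.24 and 11.35 in AGO2 null, 11.63, 11.69 and 11.70 in Dicer null and 9.00, 8.95 and 8.96 in wild type. Gpm6a, a membrane glycoprotein, had 12.07, 11.93 and 12.11 in AGO2 null, 11.97, 11.95 and 12.05 in Dicer null and 9.79, 9.96 and 9.78 in wild type. Wt1, the Wilms tumour transcription factor that marks mesothelium and its precursors, had 9.33, 9.18 and 9.33 in AGO2 null, 10.07, 10.12 and 10.10 in Dicer null and 7.68, 7.48 and 7.46 in wild type. Its rise of 2.15 (SE 0.06, adjusted p = 3.63e-07) was the least alike of the 7, with 1.74 in AGO2 null and 2.55 in Dicer null. Upk1b rose by 1.96, and Krt19, described above, was the seventh.

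Not every mesothelial gene moved by the same amount. Nkain4 rose by 2.42 in AGO2 null and 1.07 in Dicer null and was unequal. Msln, mesothelin, had log2 levels of 8.67 to 8.68 in AGO2 null, 8.96 to 9.00 in Dicer null and 8.01 to 8.22 in wild type, rises of 0.57 and 0.87. Krt18, a keratin of simple epithelia, rose by 0.59 in AGO2 null and 4.30 in Dicer null. Cpe was called in the mean of the lines with a difference of 0.24, and Efemp1 was not called (0.04, adjusted p = 0.832). The markers also had substantial levels in wild type, where their summed linear signal was 8446 to 8756 per sample, against 20943 to 22826 in AGO2 null and 24751 to 24900 in Dicer null. Whether more cells of this kind or more RNA in each cell lay behind the difference cannot be told apart in RNA from whole cultures.

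RefSeq promoters, 250 bases before to 50 after the annotated start on assembly GRCm38.p6, were found for 4 of the 7 similar mesothelial genes. They are shown because these genes moved together, in lower case 5′ to 3′ on the gene's strand, with capitals for the GC box GGGCGG, the TATA box TATAAA and the TEAD motif GGAATG on either strand.
Bnc1 (chr7:81992250-81992549, minus strand): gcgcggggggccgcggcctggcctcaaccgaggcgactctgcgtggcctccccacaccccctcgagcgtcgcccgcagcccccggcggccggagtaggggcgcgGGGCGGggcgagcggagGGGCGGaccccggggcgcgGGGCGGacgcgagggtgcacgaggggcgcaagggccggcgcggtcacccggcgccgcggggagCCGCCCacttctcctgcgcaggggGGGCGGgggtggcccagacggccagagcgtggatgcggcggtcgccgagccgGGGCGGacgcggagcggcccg
Lrrn4 (chr2:132880813-132881112, minus strand): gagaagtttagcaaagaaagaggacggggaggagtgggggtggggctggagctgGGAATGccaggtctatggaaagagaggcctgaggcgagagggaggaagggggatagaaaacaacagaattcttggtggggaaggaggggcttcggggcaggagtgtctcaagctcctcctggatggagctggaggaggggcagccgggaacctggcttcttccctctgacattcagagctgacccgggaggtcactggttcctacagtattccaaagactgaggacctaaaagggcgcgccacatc
Upk3b (chr5:136038246-136038545, plus strand): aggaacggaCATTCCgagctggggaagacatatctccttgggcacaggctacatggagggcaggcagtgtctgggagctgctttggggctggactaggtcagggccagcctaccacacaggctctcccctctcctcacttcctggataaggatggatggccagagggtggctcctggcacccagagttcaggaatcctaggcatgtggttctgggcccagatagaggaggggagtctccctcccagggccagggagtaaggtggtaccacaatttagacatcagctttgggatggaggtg
Gpm6a (chr8:54779184-54779483, plus strand): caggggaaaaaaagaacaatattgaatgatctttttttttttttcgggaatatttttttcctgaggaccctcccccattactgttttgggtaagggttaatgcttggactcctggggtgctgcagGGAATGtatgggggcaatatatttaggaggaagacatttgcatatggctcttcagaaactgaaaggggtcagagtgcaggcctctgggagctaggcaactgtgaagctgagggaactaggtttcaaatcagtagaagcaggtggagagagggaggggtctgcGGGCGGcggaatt
The 4 windows differed in make-up. That of Bnc1 held 50 CG dinucleotides and 6 GC boxes, that of Upk3b held 2 CG dinucleotides and no GC box, and those of Lrrn4 and Gpm6a held 7 and 4 CG dinucleotides. Lrrn4, Upk3b and Gpm6a each held 1 TEAD motif, which occurred in 13.0% of 11901 promoters of measured genes; none of the 4 held a TATA box.

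Over all similar genes with a promoter in the table, 12.1% of 99 rises and 15.5% of 103 falls held the TEAD motif. The TATA box was found in 7.07% of the rises and 14.6% of the falls, beside 11.6% of the measured genes. A GC box was found in 64.6% of the rises and 55.3% of the falls, beside 53.4%. The AP-1 motif TGANTCA occurred in 10.1% and 9.71%, beside 6.79%, and the CCAAT box in 33.3% and 34.0%, beside 38.5%. Each motif was searched on both strands, and these shares are descriptions of the letters in the windows.

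Markers of other cell types moved in smaller shares, some of them also upward. Among 16 epithelial markers 5 were called higher and none lower in the mean of the lines, and 3 (18.8%, beside 6.67% of all named genes) were higher in each line, namely Krt19, Krt18 and Esrp2. Epcam, Cdh1 and Cldn7 had group means between 5.6 and 6.2. The summed linear signal of the epithelial markers was 912 to 988 per sample in wild type, 1621 to 2148 in AGO2 null and 4618 to 4887 in Dicer null. Of 15 macrophage and leukocyte markers only Cd68, a lysosomal membrane protein found in many cells, was called the same way, at -0.76; Ptprc and Adgre1 lay below 4.84 in each group. Of 16 endothelial markers Erg fell by 1.94, and it was the only one of them called the same way. Of 17 neural and glial markers 4 (23.5%) fell and 1 (5.88%) rose in both lines, beside 7.77% and 6.67% of all named genes. Stmn2, a tubulin-binding protein of neurons, fell by 2.81 to null levels of 3.97 to 4.18, among the dim rows, and Sox2 by 1.09. Of 15 striated muscle markers Tnnt3 was called lower (-0.58) and Tnnt2, the cardiac troponin T, higher in both lines but unequally, by 1.91 and 5.01. Of 18 adipocyte, cartilage and bone markers Lpl was called the same way in both lines, and of 23 pluripotent and germline markers Sox2 was. Over all named genes 14.4% were called the same way. The share was 6.67% for the macrophage and leukocyte list, 6.25% for the endothelial list and 13.3% for the muscle list. It was 5.56% for the adipocyte, cartilage and bone list and 4.35% for the pluripotent and germline list. The summed signal of the adipocyte, cartilage and bone markers was 1207 to 1248 in wild type, 4227 to 4293 in AGO2 null and 2604 to 2632 in Dicer null, and that of the striated muscle markers was 1113 to 1200, 1258 to 1408 and 3274 to 3330 in the same order. These sums rest largely on single genes. Lpl had mean log2 levels of 7.31, 11.59 and 10.67 in that order, and Tnnt2 had 5.87, 7.78 and 10.88. The median differences of the 2 lists were -0.02 and -0.00, and 14 of the 18 and 10 of the 15 genes were not called in the mean of the lines. The shares called, 22.2% and 33.3%, were near the 28.6% of all named genes. The null lines lay above wild type without overlap in the sums of the epithelial, adipocyte and muscle lists. They lay below it without overlap in those of the macrophage and neural lists. The macrophage and leukocyte markers summed to 740 to 761 in wild type, 649 to 739 in AGO2 null and 674 to 693 in Dicer null, the endothelial markers to 1103 to 1169, 1063 to 1405 and 887 to 907, the neural and glial markers to 1349 to 1458, 1232 to 1274 and 1027 to 1080, and the pluripotent and germline markers to 998 to 1064, 1020 to 1101 and 1137 to 1160. The summed linear signal of the fibroblast identity genes was 37811 to 39698 in AGO2 null, 18615 to 18713 in Dicer null and 29292 to 30586 in wild type, so fibroblast genes were measured in each group, at unequal levels. Whether the differences in these marker lists bear on other genes was not tested.

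Among transcription factors that pattern mesenchyme, most of those called in both lines fell, and the share of rises was close to that of all named genes. Of 84 measured developmental transcription factors, 24 were called the same way in both lines, 6 higher (7.14%) and 18 lower (21.4%), beside 6.67% and 7.77% of all named genes; quantile normalization gave 7 and 17. Similar rises were those of Wt1, of Lhx9, a LIM factor of gonad and body wall mesenchyme, by 2.08, and of Gata6, a zinc finger factor of visceral mesoderm and endoderm, by 1.28. Lhx9 had log2 levels of 9.66, 9.23 and 9.69 in AGO2 null, 9.04 in all 3 Dicer null samples and 7.13, 7.15 and 7.32 in wild type. Tcf21, a factor of visceral and epicardial mesenchyme, rose in both lines but unequally, by 2.79 in AGO2 null and 4.19 in Dicer null. Similar falls were those of Ebf3, of Osr2, an odd-skipped factor of limb and palate, by 2.43, of Zeb1, a repressor of epithelial genes, by 1.41, of Isl1 by 1.53 and of Nr2f1. Osr2 had 6.18, 6.51 and 6.50 in AGO2 null, 6.40, 6.19 and 6.36 in Dicer null and 8.66, 8.50 and 9.21 in wild type, so that the null lines overlapped. Tbx5, the T-box factor of forelimb and heart, fell by 2.47 and 3.32, and the lines could not be resolved as similar.

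**Figure D3:**
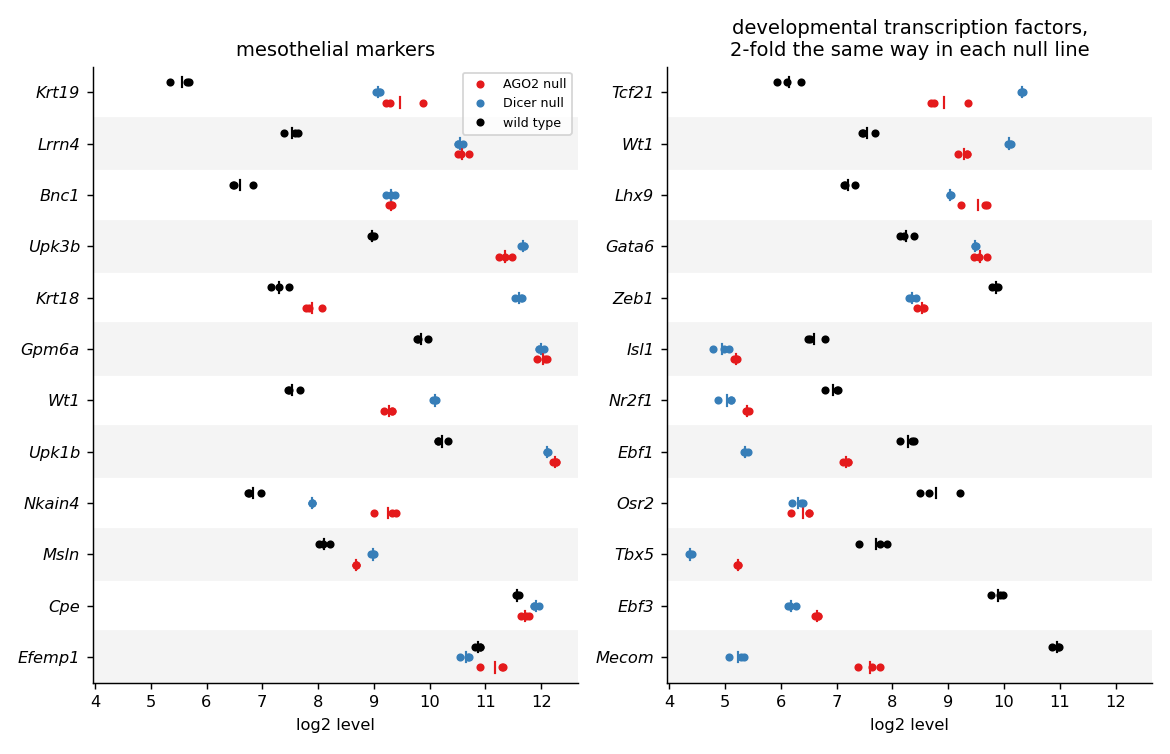
Log2 level (x axis) in each of the 9 samples for the 12 measured mesothelial markers and for the 12 developmental transcription factors that differed at least 2-fold the same way in each null line. Dots are samples by genotype. The null samples lie above wild type in 11 of the 12 mesothelial markers, Efemp1 being the exception, whereas the transcription factors hold 4 rises and 8 falls.

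Hox genes, which record position along the body and limb axes, were mostly lower where both lines moved alike, and the 2 similar ones were posterior genes of the HoxD cluster, active in the distal limb. Hoxd13 had log2 levels of 5.73, 6.15 and 6.25 in AGO2 null, 5.32, 6.05 and 5.63 in Dicer null and 9.26, 9.37 and 9.32 in wild type, a fall of 3.46 (SE 0.17, adjusted p = 4.99e-06). Hoxd10 had 6.37, 6.51 and 6.33 in AGO2 null, 6.46, 6.64 and 6.57 in Dicer null and 9.41, 9.35 and 9.33 in wild type, a fall of 2.88. Both null lines overlapped in each gene and lay well below wild type. Of 32 measured Hox genes, 7 (21.9%) were called lower in both lines and none higher, beside 7.77% and 6.67% of all named genes, and under either rescaling 6 were called lower and 1 higher. In 7 further Hox genes (21.9%, beside 2.72% of all named genes), all of the HoxB and HoxC clusters, the lines went opposite ways, up in AGO2 null and down in Dicer null.

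Imprinted genes are expressed from 1 parental copy in at least some tissues, and the parental copies were not told apart here. Of 19 measured, 6 (31.6%) were called lower and 1 (5.26%) higher in both lines, beside 7.77% and 6.67% of all named genes. H19, Igf2 and Dcn were similar, 3 genes or 15.8%, beside 1.82%, and of these Dcn rose. Igf2, the fetal growth factor that shares a chromosomal domain and enhancers with H19, had log2 levels of 6.09, 6.21 and 6.20 in AGO2 null, 5.91, 5.70 and 5.91 in Dicer null and 8.27, 8.30 and 8.14 in wild type. It fell by 2.23 (SE 0.07, adjusted p = 3.97e-07), or 4.70-fold. In the order of genes on GRCm38.p6, H19 and Igf2 were 1 of 8 pairs of adjacent measured genes that were both similar, and in 7 of the 8 pairs both genes moved in the same direction. The pairs were taken by order alone, with no limit on distance. How many such pairs the order of genes would give by itself was not tested. Another of these pairs was Aldh1a1 and Aldh1a7, close paralogs whose probes may share target sequence.

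The retinoic acid pathway, which turns vitamin A into a ligand of nuclear receptors, had 10 of 18 measured genes called the same way in both lines (55.6%, beside 14.4% of all named genes), 2 higher and 8 lower. The 8 became 6 after quantile normalization and 5 after median centring. Of the dehydrogenases that make the ligand, Aldh1a1 had 11.74, 11.57 and 11.81 in AGO2 null, 11.47 in all 3 Dicer null samples and 9.76, 9.43 and 9.84 in wild type, a rise of 1.91, while Aldh1a2 rose unequally, by 4.09 and 2.29. Carriers of retinol and retinoic acid in this list fell. Rbp4, the retinol-binding protein, had 6.15, 6.15 and 6.08 in AGO2 null, 5.81, 5.47 and 5.65 in Dicer null and 9.25, 9.13 and 8.93 in wild type, a fall of 3.22 (SE 0.09, adjusted p = 3.03e-07). Crabp1, which binds retinoic acid in the cytoplasm, fell by 4.37 in AGO2 null and 5.42 in Dicer null from wild-type levels of 12.27 to 12.33. Crabp2 fell by 3.78 and 4.37 and was unresolved.

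Guidance and neural adhesion genes include ligands and receptors that steer axons and migrating cells, and the list also holds Cadm1 and Rtn1, described above. Of 58 measured genes, 27 were called the same way in both lines (46.6%, beside 14.4% of all named genes), 16 higher and 11 lower. Similar were 9 (15.5%, beside 1.82%), Cadm1 and Rtn1 among them. The counts of 16 and 11 did not change under either rescaling. Of the secreted class 3 semaphorins, Sema3c had log2 levels of 11.69, 11.20 and 11.70 in AGO2 null, 11.09, 11.04 and 11.04 in Dicer null and 8.98, 8.97 and 9.11 in wild type. Sema3e had 9.60, 9.60 and 9.70 in AGO2 null, 9.70, 9.62 and 9.57 in Dicer null and 8.15, 8.10 and 8.22 in wild type, a rise of 1.48 in each line. Sema3d rose by 1.86, with bounds between the lines of -0.83 and 0.01. Sema6a, another membrane semaphorin, fell by 2.29, opposite to Sema6d. The similar receptors were lower: Unc5c, a netrin receptor, had 6.05, 6.20 and 6.08 in AGO2 null, 6.02, 5.95 and 5.85 in Dicer null and 8.51, 8.35 and 8.44 in wild type, a fall of 2.41, and Robo1, a Slit receptor, fell by 2.10.

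Of 17 cadherins and protocadherins, 3 were called higher and 3 lower in both lines (17.6% each, beside 6.67% and 7.77% of all named genes). Pcdh7 rose by 1.99 and Cdh3, P-cadherin of epithelia, by 1.78, whereas Cdh13, a cadherin anchored by a lipid tail, fell by 1.66.

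Genes of the extracellular matrix moved both alike and in opposite ways. Of 62 measured, 26 (41.9%, beside 14.4% of all named genes) were called the same way in both lines, 11 higher and 15 lower, of which 5 were similar and 7 fell unequally. A further 14 (22.6%, beside 2.72%) went up in AGO2 null and down in Dicer null. Dcn, the proteoglycan decorin, had log2 levels of 12.30, 12.21 and 12.33 in AGO2 null, 11.97, 11.97 and 11.99 in Dicer null and 10.62, 10.88 and 10.86 in wild type, a rise of 1.34. Col14a1, a fibril-associated collagen, rose by 1.44. Fbn2, the fetal fibrillin, fell by 2.31 with 70 of 70 exon probe sets below wild type, and Mfap4, a microfibril protein, fell by 1.84. Among 31 matrix proteases and inhibitors 5 (16.1%) were called higher and 7 (22.6%) lower in both lines, beside 6.67% and 7.77% of all named genes. Timp3, an inhibitor of metalloproteinases bound to the matrix, was the similar one, at 11.53, 11.51 and 11.53 in AGO2 null, 11.05 in all 3 Dicer null samples and 9.84, 9.65 and 9.57 in wild type.

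Fibroblast identity genes numbered 28, with 3 called higher (10.7%) and 6 lower (21.4%) in both lines, beside 6.67% and 7.77% of all named genes; these became 4 and 7 after quantile normalization. Another 8 (28.6%, beside 2.72%) were up in AGO2 null and down in Dicer null. Their median difference was 0.19 in AGO2 null and -1.37 in Dicer null. Apart from Dcn, the similar gene was Nt5e, the surface 5′-nucleotidase CD73, which fell by 1.90. Of 22 contractile genes 2 (9.09%) were called higher and 3 (13.6%) lower in both lines. After quantile normalization 2 were called higher and 5 lower, so the share of falls depends on the scaling. Mylk, myosin light chain kinase, had 9.03, 8.63 and 8.80 in AGO2 null, 8.52, 8.46 and 8.58 in Dicer null and 6.36, 6.40 and 6.31 in wild type, a rise of 2.32.

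Among 60 growth factors and receptors 5 (8.33%) were called higher, near the 6.67% of all named genes, and 10 (16.7%) lower, beside 7.77%, in both lines. The similar ones were Igfbp3, higher, and Igf2, lower. Igfbp3 had log2 levels of 10.96, 10.82 and 10.90 in AGO2 null, 10.28, 10.26 and 10.29 in Dicer null and 7.87, 7.58 and 7.70 in wild type. Of 59 ligands and modulators of Wnt, BMP and TGF-beta signalling 9 (15.3%) were called higher and 11 (18.6%) lower in both lines, or 10 and 10 after median centring. Dkk2 had 6.88, 7.25 and 6.98 in AGO2 null, 6.50, 6.52 and 6.47 in Dicer null and 10.52, 10.67 and 10.52 in wild type, and Id1, a target of BMP signals, rose by 1.22. In each of these 3 genes the null lines lay on one side of wild type and did not overlap it.

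Interferon-stimulated genes, which resist viruses, were lower. Of 34 measured, 32 were called lower in the mean of the lines and 1 higher, and 20 were called lower in each line (58.8%, beside 7.77% of all named genes). The median difference was -0.35 in AGO2 null and -1.67 in Dicer null, so the sizes were unlike, and 4 were similar (11.8%, beside 1.82% of all named genes). With the line as a random block 8 were called lower. Stat2, which carries the interferon signal to the nucleus, had log2 levels of 7.64, 7.89 and 7.82 in AGO2 null, 7.36, 7.35 and 7.42 in Dicer null and 8.92, 8.96 and 8.95 in wild type, a fall of 1.36 (SE 0.06, adjusted p = 2.61e-06). Mx1, an antiviral GTPase, had 3.70, 3.60 and 3.93 in AGO2 null, 3.53, 3.65 and 3.58 in Dicer null and 5.21, 5.0 and 5.33 in wild type. Its fall of 1.51 ended among the dim rows in both lines. Irf7, the factor that amplifies interferon, fell by 1.22 and Zbp1, a sensor of nucleic acids, by 1.32. Ifit1, which binds foreign RNA, fell by 1.47 in AGO2 null and 5.86 in Dicer null, where its level was among the dim rows.

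Of 41 measured cytokines and chemokines, 7 (17.1%) were called higher in both lines, beside 6.67% of all named genes, and 3 (7.32%) lower, about the 7.77% of all named genes. Il18, an activator of lymphocytes, had 10.21, 9.52 and 10.13 in AGO2 null, 9.95, 10.09 and 10.03 in Dicer null and 7.58, 7.50 and 7.61 in wild type, a rise of 2.42. Ccl2, which attracts monocytes, had 10.94, 11.62 and 10.79 in AGO2 null, 10.64, 10.68 and 10.63 in Dicer null and 9.09, 9.22 and 9.25 in wild type, a rise of 1.70. In both genes the null lines lay above wild type, and for Il18 they overlapped each other.

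Of 30 measured genes of the RNA silencing machinery, 5 were called the same way in both lines (16.7%, close to the 14.4% of all named genes), 3 higher and 2 lower, or 1 and 3 after quantile normalization, and none was similar. Snd1, a nuclease found with the silencing complex, rose by 0.38 and Adar, which edits double-stranded RNA, fell by 0.96. With the line as a random block the adjusted p was 0.0689 for Snd1 and 0.0514 for Adar. Of 27 genes that host microRNAs, 1 (3.70%) was called higher and 5 (18.5%) lower in both lines, beside 6.67% and 7.77% of all named genes, and the similar ones were H19, Igf2 and Dnm1. Dnm1, dynamin 1, had log2 levels of 7.14, 7.22 and 7.29 in AGO2 null, 7.30, 7.26 and 7.32 in Dicer null and 9.25, 9.16 and 9.16 in wild type, a fall of 1.94.

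Targets of 3 abundant microRNA families were read as a whole, since a gene with matching sites for a microRNA is a candidate for relief in both lines. The mature sequences, from RefSeq on GRCm38.p6, are shown with the seed, bases 2 to 8, in capitals.
let-7a-5p: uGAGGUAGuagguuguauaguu
miR-17-5p: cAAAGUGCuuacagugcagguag
miR-21a-5p: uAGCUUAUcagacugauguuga
The 3 seeds are different. Of 27 measured targets of let-7, 8 (29.6%) were called higher and 2 (7.41%) lower in both lines, beside 6.67% and 7.77% of all named genes, with a median difference of 0.41. Those called higher were mostly under 2-fold in AGO2 null, such as Igf2bp1, an oncofetal RNA-binding protein, at 0.37 and 1.52. Cdk6, the kinase that partners D cyclins, was the similar rise, with log2 levels of 8.73, 9.27 and 8.70 in AGO2 null, 9.47, 9.46 and 9.37 in Dicer null and 7.56, 7.20 and 7.53 in wild type. Its difference was 1.74 (SE 0.14, adjusted p = 7.45e-05). Ccnd1, cyclin D1, fell by 1.11, with 6.94, 7.40 and 7.00 in AGO2 null, 7.18, 6.94 and 6.76 in Dicer null and 7.98, 8.10 and 8.37 in wild type. Hmga2, a chromatin protein often used as the example of a let-7 target, was lower in both lines, by 0.45 and 1.25. A further 5 of the let-7 targets (18.5%, beside 2.72% of all named genes) were called in opposite ways, 4 of them up in AGO2 null. In the mean of the lines 13 let-7 targets were called higher and 5 lower, which became 4 and 1 with the line as a random block. Of 21 targets listed for miR-17, miR-21 and their relatives 3 (14.3%) were called higher (4 under either rescaling) and 2 (9.52%) lower, with similar rises of Timp3 by 1.59 and of Zfpm2, a partner of GATA factors, by 1.21.

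In lists of metabolism and stress genes, read beside 6.67% higher, 7.77% lower and 1.82% similar over all named genes, rises outnumbered falls among the calls in both lines. Of 31 glutathione and Nrf2 targets 4 (12.9%) were called higher (7 under either rescaling) and 1 (3.23%) lower, and 2 (6.45%) were similar, with rises of Gsta3 and of Mgst1, a membrane glutathione transferase, by 1.91. Gsta3 had 9.70, 8.98 and 9.64 in AGO2 null, 9.00, 9.16 and 9.08 in Dicer null and 5.45, 5.48 and 5.98 in wild type. Of 31 glycolysis and hypoxia genes 6 (19.4%) were called higher and 3 (9.68%) lower, and 2 (6.45%) were similar, with Pfkfb3, which makes an activator of glycolysis, up by 1.35 and Eno2, an enolase, down, at -1.61. Of 41 genes of the ATF4 and unfolded protein response 11 (26.8%) were called higher and none lower in both lines, with a median difference of 0.16 and none similar at 2-fold. These 11 became 9 after quantile normalization and 14 after median centring. Slc7a1, a carrier of cationic amino acids, had the largest of these differences, 1.14. Of 16 heat shock genes 2 (12.5%) were called higher (4 under either rescaling) and 1 (6.25%) lower. Cryab, a small heat shock protein, was the 1 similar gene (6.25%), at 1.57.

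Lists of cell maintenance and growth differed in how many of their genes were called. Of 41 oxidative phosphorylation genes 17.1% were called in the mean of the lines, beside 28.6% of all named genes, and Ndufv1 alone was called in both lines (2.44%, beside 14.4%), at 0.25. The share called in the mean was 30.8% of sterol and fatty acid synthesis genes, 34.6% of lipid genes, 40.0% of p53 targets, 44.9% of cell cycle genes and 54.8% of immediate-early genes. The same way in both lines were 11.5%, 19.2%, 16.0%, 22.4% and 22.6% of these lists in that order. Of 26 sterol and fatty acid synthesis genes 3 were called higher and none lower, among them Fdps at 0.87. Fdps was not called with the line as a random block (adjusted p = 0.146) or from the mean of its exon probe sets (0.27, adjusted p = 0.18). Of 49 cell cycle genes 5 were called higher and 6 lower, a balance that median centring turned to 6 and 4, and the similar ones were Cdk6 and Ccnd1. Of 25 p53 targets 1 was called higher and 3 lower (2 and 5 after quantile normalization), with Pmaip1 at 0.63 and Cdkn1a, the inhibitor p21, at -1.10. Of 31 immediate-early genes 1 was called higher and 6 lower, and Rgs2, with 4.83, 4.60 and 4.69 in AGO2 null, 5.11, 5.13 and 4.85 in Dicer null and 8.58, 8.34 and 8.52 in wild type, was the similar one. Of 26 lipid genes 2 were called higher and 3 lower. Lpl, lipoprotein lipase, rose by 4.27 and 3.35, with 11.61, 11.56 and 11.59 in AGO2 null, 10.67, 10.66 and 10.66 in Dicer null and 7.21, 7.31 and 7.43 in wild type, and it was unresolved because the interval between the lines reached 1.06. Fabp3, a fatty acid binding protein, fell by 1.42. Of 6 sex-linked genes 3 were called in the mean of the lines, and Eif2s3x was called higher in both, at 0.26. With the line as a random block Fabp3 (adjusted p = 0.133), Pmaip1 (0.177), Ndufv1 (0.0568) and Eif2s3x (0.283) were not called either. Eif2s3x was also not called after quantile normalization (adjusted p = 0.0517) and lost its call when replicate 1 of Dicer null (0.0533) or replicates 1 (0.0874) and 3 (0.0706) of wild type were left out in turn.

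**Figure D4:**
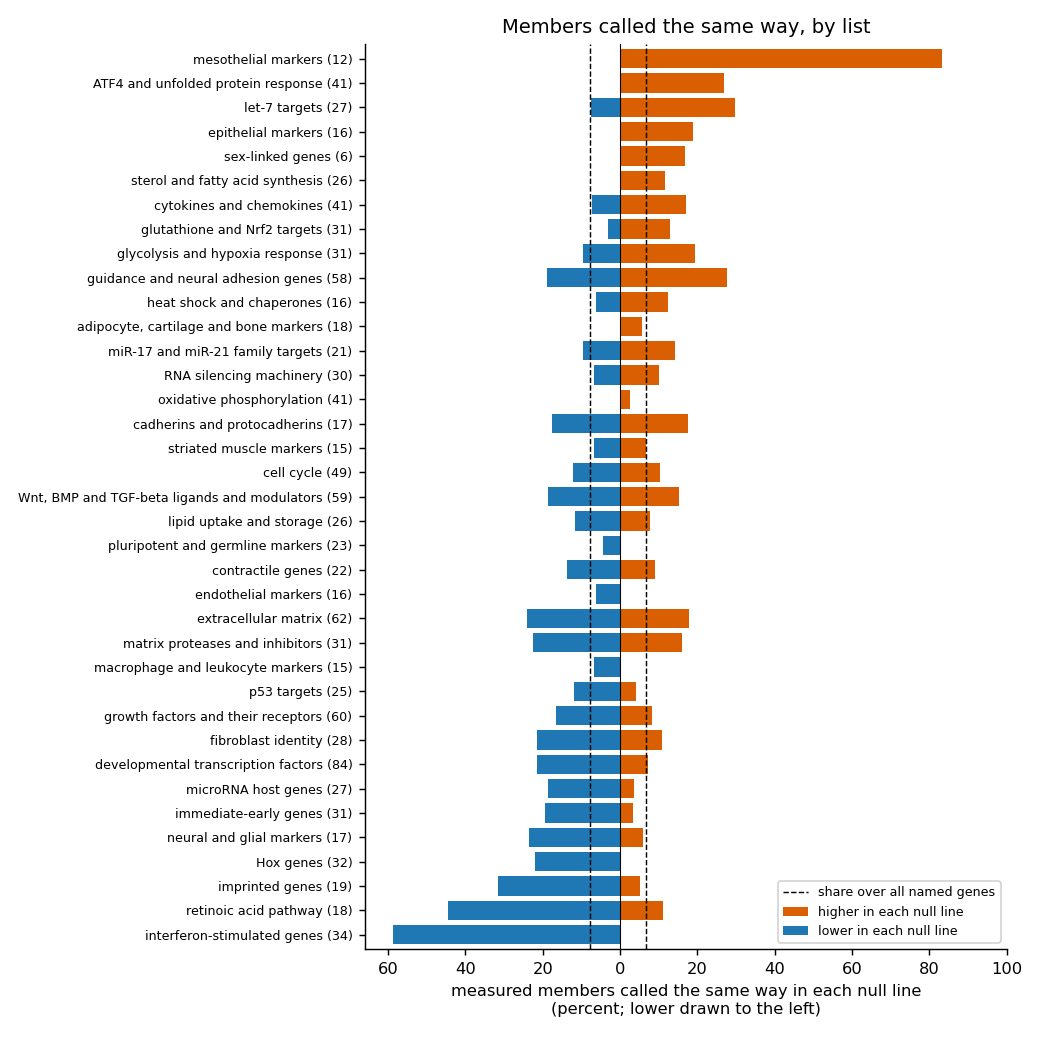
Percent of measured members called the same way in each null line, by list, split into higher (to the right) and lower (to the left). The dashed lines mark the shares of all named genes, 6.67% higher and 7.77% lower. The mesothelial markers (83.3%), the interferon-stimulated genes (58.8%) and the retinoic acid pathway (55.6%) have the largest shares, the first made up of rises, the second of falls. The lists were chosen with earlier results of these data known, so the shares are descriptions and carry no test.

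The limit on the interval cut through a continuum. Nearest inside it were Adgrl3, with an upper bound of 1.00 and differences of -3.02 and -3.84, and Cavin4, with bounds of 0.45 and 0.99. Nearest outside were Gnb4, with differences of -1.39 and -2.11, and Tspan8, which was 3.19 and 3.97 above wild type with bounds of -1.02 and -0.54. Adgrl3 had the same log2 level, 6.31, in all 3 AGO2 null samples. Equal values in all 3 samples of a group (within 1e-04) occurred in 273 AGO2 null, 543 Dicer null and 336 wild-type rows of the gene-level table, and in 5 to 7 of 229581 exon probe sets, so the spread of some gene-level rows is smaller than that of their probe sets. Gene levels recomputed as the mean of the exon probe sets of 13352 named genes kept 264 of 266 similar genes as called the same way in each line. Of the 266, 242 were still similar by the same rule. The median size of the 266 was 1.64 against 1.65.

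Shared direction did not mean shared size. Crabp1 (-4.90) and Angpt1 (-4.90), a ligand of the endothelial receptor Tie2, Itm2a (-4.88), a membrane protein, and Mecom (-4.53), a zinc finger transcription factor, had the largest mean falls among the unequal genes, and each fell further in Dicer null. Mecom had log2 levels of 7.63, 7.38 and 7.78 in AGO2 null, 5.08, 5.28 and 5.34 in Dicer null and 10.98, 10.86 and 10.99 in wild type. A second row of the table that carries the Mecom symbol gave -4.28 in AGO2 null and -4.99 in Dicer null, only 0.71 apart and not called between the lines (adjusted p = 0.0923), so the unequal size rests on 1 of its 2 rows. The Dicer null levels of Angpt1 and Itm2a and the wild-type level of Cysltr1 lay among the dim rows. Among the unequal rises, Cysltr1, a leukotriene receptor, rose by 3.87 and 5.13, and Lbp, which presents bacterial lipopolysaccharide, by 3.51 and 4.66. Saa3, an acute phase protein, had 11.49, 11.67 and 11.41 in AGO2 null, 7.74, 7.74 and 7.56 in Dicer null and 5.33, 5.54 and 5.63 in wild type. Tnfsf18, a ligand of the tumour necrosis factor family, rose by 4.91 and 3.12. With the line as a random block Saa3 (adjusted p = 0.0993) and Tnnt2 (adjusted p = 0.0943) were not called.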

How the data were processed

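The authors deposited log2 values per array in a gene-level table (23332 rows) and an exon-level table (229581 probe sets); which background correction, summarisation and normalization made them: not given in the sources used here. Genome build mm8 is named in the submitters' processing notes. Values were used as deposited. Symbols came from the platform annotation, updated through RefSeq GRCm38.p6: 14996 gene-level rows had 1 symbol, 1019 several and 7317 none. The identifiers of 6577 gene-level rows also occur in the exon-level table, and none of these rows had 1 symbol. They count in every share over all rows and in the mark of dim rows. A gene entered a list with its row of highest mean, which left 14847 named genes.

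All 9 samples entered 1 fit in limma 3.58.1 (R 4.3.3; lmFit, eBayes without trend) with 3 group means. The contrasts were the mean of both null lines minus wild type, each line minus wild type, and AGO2 null minus Dicer null, with Benjamini-Hochberg adjustment over all rows. The procedure was tested on simulated data. Named genes were Ago2 and Dicer1, the 12 largest similar rises and falls, up to 2 similar rises and 2 falls per list (else 1 called the same way), 5 opposite genes each way, 4 unequal rises and 4 falls, and the 2 genes nearest each side of the interval limit. List members named beyond these were picked after their values were seen. The members and the 37 lists were chosen with earlier results of these data known. Alternatives covered scaling, low rows, offset, variance prior, replicate block, line block, separate fits and each replicate left out; the mean of exon probe sets was added after seeing the data. The number of arrays limits the precision.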

Additional observations from a re-analysis of the deposited data

Results flagged for a closer look

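The 18 genes named from the opposite and the unequal classes were chosen by their calls and differences in these same samples, so the values below describe that choice and carry no test. The value given first for each gene is AGO2 null minus Dicer null on the log2 scale, followed by each line minus wild type. Of the genes with opposite directions, 5 were up in AGO2 null and down in Dicer null. Postn (periostin) differed by 6.87 (0.53 in AGO2 null and -6.34 in Dicer null). Slit2, the guidance ligand, differed by 5.61 (0.39 and -5.23). Sfrp2, a secreted Wnt modulator, differed by 4.94 (1.58 and -3.36). Plxdc2 differed by 4.74 (0.55 and -4.18) and Apbb1ip by 4.52 (0.48 and -4.04). In Slit2, Plxdc2 and Apbb1ip the 3 wild-type values were equal or nearly so. The calls of their small AGO2 null differences rest on a spread pooled over all 3 groups, these equal values included. The SE of these differences was 0.08, 0.09 and 0.10 in that order. The Dicer null means of Postn (3.92), Slit2 (4.69) and Apbb1ip (4.46) lay under the mark of dim rows, 4.84, so the sizes of these falls are limited by the floor of the array.

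The opposite order was seen for Ctsh, the protease cathepsin H, at -4.01 (-2.05 and 1.96), Eid3 at -2.95 (-1.08 and 1.87), Perp at -2.93 (-0.66 and 2.27), Car12 at -2.84 (-1.08 and 1.76) and Olfr1372-ps1 at -2.58 (-1.08 and 1.5). The AGO2 null mean of Olfr1372-ps1 (3.93) lay among the dim rows, and the 3 wild-type values of Ctsh were the same (8.36). In these genes the mean of both lines holds changes that partly cancel.

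Among genes that moved the same way, Cysltr1 differed by -1.26 (3.87 and 5.13), Saa3 by 3.84 (6.02 and 2.18), Lbp by -1.15 (3.51 and 4.66) and Tnfsf18 by 1.79 (4.91 and 3.12). Falls that went further in Dicer null were those of Crabp1 by 1.05 (-4.37 and -5.42), Angpt1 by 1.15 (-4.32 and -5.47), Itm2a by 2.18 (-3.78 and -5.97) and Mecom by 2.36 (-3.35 and -5.71). The second Mecom row gave 0.71 (-4.28 and -4.99), which is under 2-fold. The Dicer null means of Angpt1 (4.38) and Itm2a (4.23) and the wild-type mean of Cysltr1 (4.61) also lay under 4.84.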

How the results depend on the processing

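The count of rows called in null against wild type, 5409, was 4400 to 6059 with 1 sample left out at a time, 2479 with the 6 null samples as 1 group and 1045 with the line as a random block (line correlation 0.373); all 1045 were among the 5409. The rows called the same way in each line, 2596, were 2105 to 2776 with 1 sample left out. The similar rows, 315, were 298 to 329 with 1 sample left out, of which at least 283 were among the 315, 132 with the interval limit at 0.5 log2 units, 398 at 1.5, and 289 with rows near the floor left out. The rows called between the lines, 6140, were 4740 to 6325 with 1 sample left out. Of the rows called between the lines the AGO2 null level was the higher in 64.1% as deposited, 54.0% after median centring and 47.5% after quantile normalization, so that balance depends on the scaling. The replicate numbers were checked for pairing: same-numbered samples of different groups correlated at -0.097 to 0.191 in their deviations from the group means. Differently numbered samples of different groups correlated at -0.180 to 0.139. Deviations from means of 3 samples cannot settle whether samples of 1 number shared a batch. With the replicate number as a block, 4906, 2281, 321 and 5553 rows were called in these 4 results in the same order. Of the 94 named genes, Ctsh (-0.05, adjusted p = 0.414) reversed to 0.13 with an offset of 50 and to 0.24 as the mean of exon probe sets; the cause was not tested. Of the 92 called in null against wild type, 73 kept their call and direction with the line as a random block and 19 were no longer called. Under the other settings only Ago2, Eif2s3x, Eid3, Car12 and, as the mean of exon probe sets, Fdps lost a call, besides 13 genes with the 6 null samples as 1 group. Of the 92 genes, 84 entered the setting with rows at or above the median level and 91 that of exon means, and the rest were not tested there. No detection measure, probe coordinates or second wild-type line was used here.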
